A study of Drosophila melanogaster with 12 samples.

Results

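The genes followed here through rRNA depletion are 8 of those with a mucin symbol: Muc96D, Muc26B, Muc55B, Muc68Ca, Muc68D, Muc11A, Muc4B and Muc18B. They were listed by symbol, with earlier results of these data known, and are 8 of the 17806 genes in the tables. They are not the whole family, and other genes with a Muc or Mur symbol are described further below. RNA came from wild type Oregon-R Drosophila larvae of the third instar, at the wandering stage, in 3 samples of 40 larvae each, and every group holds 3 libraries. Input libraries were made from total RNA, and depleted libraries from RNA after Ribo-Pop, in which biotinylated antisense oligonucleotides to the 18S and 28S rRNAs are captured on streptavidin beads. Both kinds of RNA were read in random-primed libraries (NEBNext Ultra II Directional), which sample a transcript along its length, and in poly(A)-primed libraries (QuantSeq), which read its 3′ end. Every RNA sample was divided into input and depleted RNA, and both library types were made from the same material. The groups therefore share RNA samples. The main fits did not pair the libraries, and a fit with the replicate number as a block is given as an alternative. The labels number the replicates 1 to 3 in each group but do not say that equal numbers mark the same RNA sample.

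Mucins are secreted or membrane-bound proteins with long repeats rich in serine, threonine and proline. O-linked sugars are added to these repeats in the Golgi, starting with GalNAc from the Pgant transferases, and the finished glycoproteins hold water and form gels. In insects, mucin-like proteins line the gut together with the chitin-binding peritrophins, and repeat-rich proteins of the same kind form part of the glue that wandering larvae store in the salivary gland to fix the pupal case. The values below are estimated counts from Kallisto per 1000000 non-rRNA counts of the library (CPM), or unique reads counted by HTSeq and scaled likewise where stated. Levels of different genes in random-primed libraries are compared only per kilobase of transcript (RPKM).

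The depth behind the values differed between library types. Non-rRNA counts were 428039 to 596423 in the random-primed input libraries, where rRNA took 96.2% to 97.3% of counts, and 9037950 to 12422400 in the depleted ones. The poly(A)-primed libraries held 2495310 to 5709120. A count of 0 allows up to 3 counts, which is 5.03 to 7.01 CPM in random-primed input and 0.241 to 0.332 CPM after depletion. Intervals and floors here cover counting error only.

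In the coordinates of the BDGP6.54 annotation, Muc96D (FBgn0051439) lies on 3R from 25397788 to 25400645 on the minus strand and has 2 exons. It sits inside Fur1, a furin-type protease gene on the same strand, without exon overlap. Muc11A (FBgn0052656; X, 12059795 to 12065144, plus strand) likewise lies inside Ten-a and lncRNA:CR43960 on its own strand, without exon overlap. No other member overlaps a gene: Muc26B (FBgn0040950) is at 6151969 to 6153701 on 2L, Muc68Ca (FBgn0036181) at 11610578 to 11620101 on 3L, Muc68D (FBgn0036203) at 11767299 to 11772157 on 3L, Muc55B (FBgn0034294) at 18050019 to 18052107 on 2R, Muc4B (FBgn0052774) at 4244095 to 4246139 on X and Muc18B (FBgn0031000) at 19215515 to 19216660 on X. Transcript lengths run from 1146 bases for Muc18B to 9524 for Muc68Ca. Intronic counts of the members did not exceed 7.6 in any library, so almost none of the values came from introns. Muc68Ca and Muc18B have 1 exon in their longest transcript, so few or no intronic counts could arise there. For the others, low intronic counts do not show how far the RNA was spliced, since short introns gather few reads.

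In total RNA, Muc96D was the most abundant member per length in the random-primed libraries, at 367 ± 42.0 RPKM (SD, n = 3), followed by Muc26B at 220 ± 4.27 RPKM. Muc68Ca (116 ± 14.6 RPKM), Muc55B (107 ± 46.5 RPKM) and Muc11A (95.8 ± 39.6 RPKM) came next and overlapped in their spread, and Muc18B had 46.9 ± 25.2 RPKM. In the poly(A)-primed input libraries, where length does not enter, the order was different. Muc11A and Muc55B stood first at 285 ± 101 and 280 ± 124 CPM, and Muc26B had 252 ± 8.14 CPM. Muc68Ca had 211 ± 44.7 CPM and Muc96D 175 ± 13.9 CPM, while Muc18B was lowest of these at 43.0 ± 10.9 CPM. The spreads of the first 4 overlapped. Muc68D and Muc4B were close to undetected: Muc68D had 0 counts in all 6 input libraries and at most 3 counts in a depleted one, and Muc4B had at most 5 counts in any library. Neither passed the filter on low counts, so 6 of 8 members were fitted in each library type.

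Muc96D was almost lost from the random-primed libraries. The 3 input libraries held 1048, 1133 and 901 CPM, and the 3 depleted libraries 7.64, 10.5 and 12.3 CPM. All depleted libraries lay far below all input libraries, and the estimated counts themselves fell, from 582.7, 675.7 and 385.6 to 94.9, 126.3 and 111.1, although the depleted libraries were deeper in non-rRNA counts. The log2 fold change was −6.72 ± 0.23 (SE; 95% interval −7.22 to −6.22), a 105-fold lower level (edgeR quasi-likelihood test, Benjamini-Hochberg adjusted p = 3.09e-08 over 10893 genes). It was the most negative of the 10458 protein-coding genes tested.

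**Figure D1:**
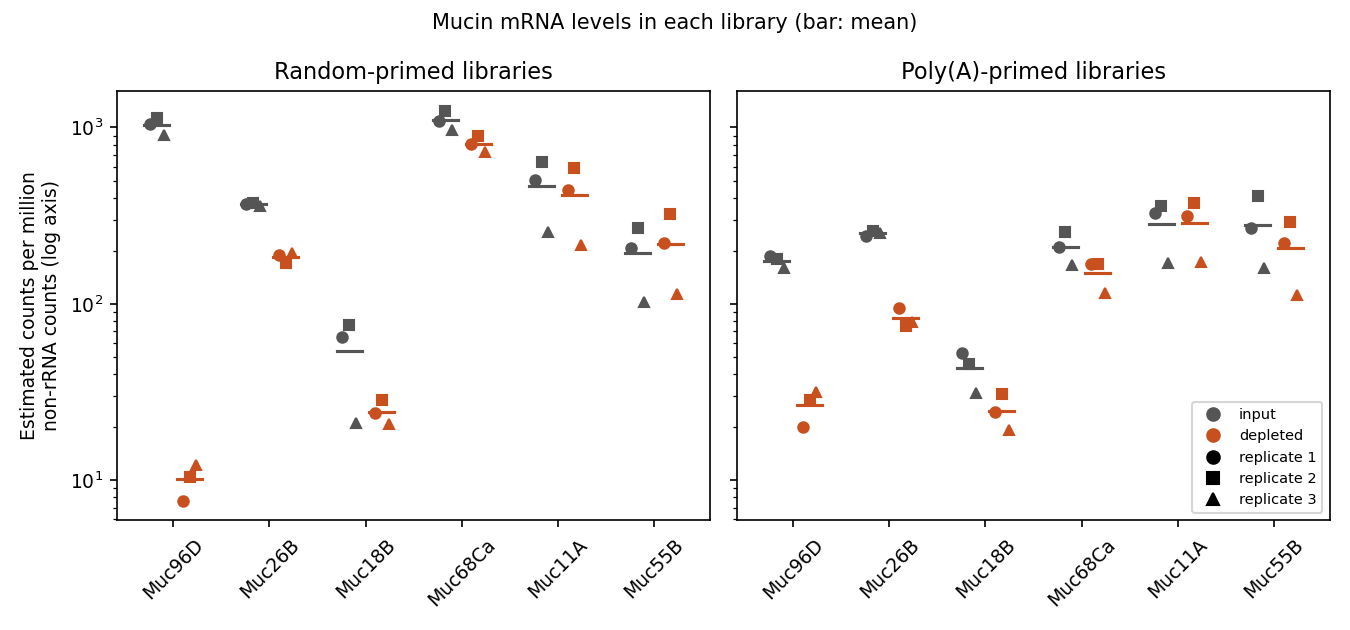
CPM (Kallisto estimated counts) on a log axis for the 6 members above the low-count filter, by library type. Each point is 1 library, grey for input and orange for depleted, its shape gives the replicate number and the bar is the group mean. Muc96D runs from 901 to 1133 CPM in random-primed input and from 7.64 to 12.3 CPM after depletion, while Muc11A and Muc55B overlap between input and depleted in both panels.

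Muc26B was lower after depletion by a smaller amount and with little spread. Its random-primed input libraries held 369, 374 and 360 CPM and its depleted libraries 188, 171 and 195 CPM, so the groups did not overlap. The log2 fold change was −1.04 ± 0.14 (SE; edgeR adjusted p = 0.00101), 2.05-fold lower. Muc18B, the shortest member, had 64.7, 75.4 and 21.0 CPM in input and 24.2, 28.4 and 20.9 CPM after depletion. The lowest input library rested on 9 counts (95% exact Clopper-Pearson interval 9.61 to 39.9 CPM) and lay within the depleted range. The log2 fold change of Muc18B was −1.22 ± 0.30 (SE) and did not pass the test (edgeR adjusted p = 0.0633). It passed without random-primed input replicate 3 (edgeR adjusted p = 0.00211) and with the replicate number as a block (0.00171).

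The longest member, Muc68Ca, had 1082, 1247 and 972 CPM in random-primed input and 801, 897 and 727 CPM after depletion. All depleted libraries were below all input libraries, but the log2 fold change of −0.50 ± 0.15 (SE; 95% interval −0.82 to −0.17) did not pass the test over all genes (edgeR adjusted p = 0.147). Muc11A held 503, 637 and 257 CPM in input and 440, 590 and 215 CPM after depletion, with a log2 fold change of −0.23 ± 0.38 (SE; 95% interval −1.09 to 0.63; edgeR adjusted p = 0.883). Muc55B held 209, 268 and 103 CPM in input and 222, 322 and 113 CPM after depletion, with a log2 fold change of 0.11 ± 0.40 (SE; 95% interval −0.82 to 1.03; edgeR adjusted p = 0.960). For Muc11A and Muc55B the groups overlapped. The interval of Muc11A holds a fall as large as the estimate for Muc26B. That interval comes from the fit without a block, so it includes the spread between replicates. In libraries of equal number, all 3 depleted CPM values of Muc11A were below input and all 3 of Muc55B above. With the replicate number as a block, Muc68Ca (edgeR adjusted p = 2.26e-06) and Muc11A (0.0394) passed as lower. The log2 fold change of Muc11A was then −0.22, beside −1.05 for Muc26B. Without the block, leaving out 1 library, which also unbalances the RNA samples, turned the sign to −0.15 and −0.26 for Muc55B without random-primed input replicate 3 and depleted replicate 2, and to 0.07 and 0.05 for Muc11A without input replicate 2 and depleted replicate 3. With library sizes from the spike-ins, Muc55B was at −0.02.

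Over the random-primed libraries, 2 of the 6 members fitted were called lower at an adjusted p under 0.05 and 0 were called higher. The same rule called 2.28% of the 10893 genes lower and 0.0643% higher. The depleted libraries lay below all input libraries in 3 of 6 members, against 8.28% of all genes. The median log2 fold change was −0.77 over the 6 members and 0.06 over all genes tested. DESeq2 called 4 members lower and 0 higher, beside 401 lower and 12 higher of the 10893 genes. Without multiple-test adjustment 4 members had an edgeR p under 0.05, all lower and 0 higher. The share of all genes under that rule was not counted, so nothing is read from it. The calls known when the members were chosen came from the poly(A)-primed libraries, but both library types were made from the same RNA.

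By poly(A) priming, all 6 members had negative log2 fold changes. These values are given as a description, without a test, because results of this contrast were known at the choice of the genes. By HTSeq, Muc96D held 243, 243 and 198 CPM in input and 26.2, 38.3 and 41.4 CPM after depletion, a log2 fold change of −2.89 ± 0.19 (SE), 7.43-fold lower. The groups did not overlap. Muc26B held 261, 274 and 267 CPM in input and 100.4, 81.3 and 82.5 CPM after depletion, a log2 fold change of −1.79 ± 0.16 (SE), and its groups did not overlap either.

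Muc18B followed with −0.95 ± 0.22 on the log2 scale (SE), from 31.7 to 54.4 CPM in input and 19.5 to 32.4 CPM after depletion. Muc68Ca had −0.72 ± 0.19, with 180 to 278 CPM in input and 122 to 177 CPM after depletion, and by HTSeq the groups overlapped for Muc18B and not for Muc68Ca. By Kallisto it was the other way: the lowest input and highest depleted libraries held 31.1 and 30.7 CPM for Muc18B and 166 and 168 CPM for Muc68Ca. The log2 fold change of Muc55B was −0.71 ± 0.46 and that of Muc11A −0.15 ± 0.34 (SE), and both overlapped between groups. In this contrast 4 of 6 members were called lower and 0 higher, beside 3.85% and 0.997% of the 9530 genes tested, and 3 of 6 did not overlap by HTSeq, beside 7.73%. Nothing is read from these counts, since this contrast guided the choice of the genes. The members' median log2 fold change was −0.84, and that of all genes 0.02.

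**Figure D2:**
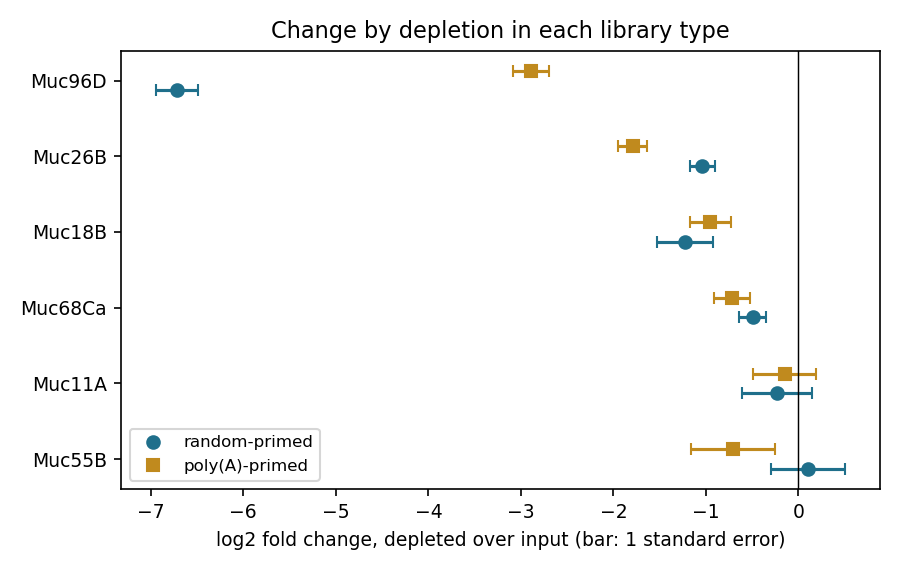
Log2 fold change of depleted over input libraries for 6 members, with 1 standard error, in random-primed libraries (circles, Kallisto estimated counts) and poly(A)-primed libraries (squares, HTSeq reads). Muc96D lies at −6.72 and −2.89, Muc26B at −1.04 and −1.79, and the other 4 members have overlapping bars.

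The difference between library types was estimated in a fit of all 12 libraries on Kallisto counts. The random-primed minus poly(A)-primed log2 fold change was −3.67 ± 0.27 (SE) for Muc96D and 0.88 ± 0.20 for Muc26B. The other members had differences of 0.88 ± 0.72 (Muc55B), 0.32 ± 0.25 (Muc68Ca), 0.10 ± 0.64 (Muc11A) and −0.10 ± 0.40 (Muc18B). The median over the 11175 genes of that fit was 0.16. The fall in Muc96D was larger by random priming. The estimate for Muc26B had the opposite sign and did not pass the edgeR test over all genes. These differences include the poly(A)-primed change, which was known when the genes were chosen, so they are a description and no independent test.

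The level seen by random priming relative to that seen at the 3′ end gives the same pattern for each condition. In input RNA, log2 of random-primed RPKM over poly(A)-primed CPM was 1.07 for Muc96D, at the 92.9 percentile of 5245 protein-coding genes with at least 10 counts on average in both groups. After depletion it was −2.88, at the 0.343 percentile of 9328 genes. No other member changed place to this extent. Muc26B went from −0.20 to 0.41 (percentiles 55.3 and 90.5), Muc55B from −1.38 to −0.78, and Muc11A stayed low, at −1.58 and −1.75. Both ratios hold the same libraries as the fold changes and are no separate measurement.

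**Figure D3:**
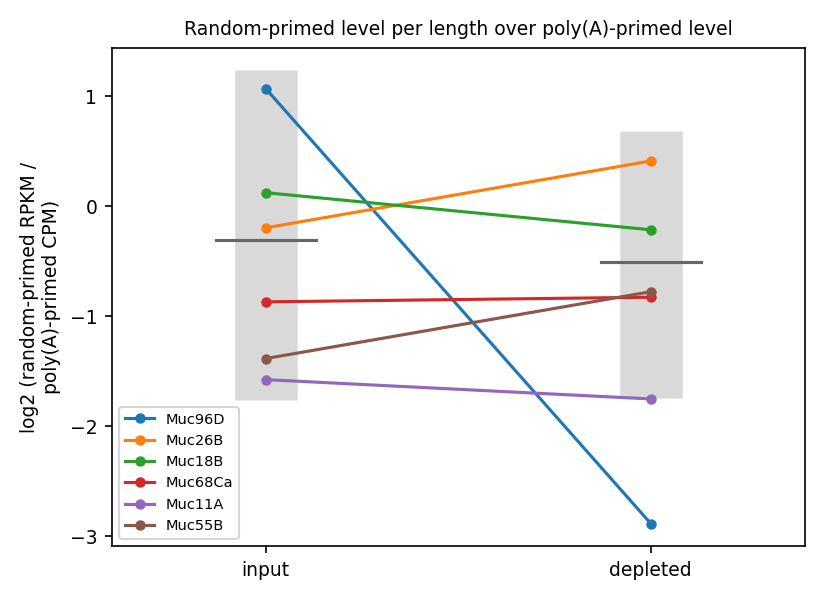
Log2 of mean random-primed RPKM over mean poly(A)-primed CPM for 6 members in input and depleted RNA, with the 5th to 95th percentile of protein-coding genes as grey bars and their median as a line. The line of Muc96D falls from 1.07 to −2.88 and leaves the grey range, while Muc26B rises from −0.20 to 0.41.

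Because the SIRV spike-ins went into the RNA ahead of depletion, counts per spike-in count estimate the share of the input RNA left, as each library type reads it. In the random-primed libraries this estimate was 0.826% for Muc96D. The targeted 18S and 28S rRNAs stood at 0.527% and 0.602% by the same measure, and the median of 5364 protein-coding genes at 90.7% (5th to 95th percentile 55.3% to 120%). Muc18B (37.7%) and Muc26B (43.1%) were also below the 5th percentile. In libraries of equal number, the share was 44.4%, 39.8% and 46.3% for Muc26B. For Muc18B it was 32.6%, 32.7% and 85.0%, where input replicate 3 rested on 9 counts. Muc68Ca had 63.5%, Muc11A 77.7% and Muc55B 98.8% left, within that range. An exact two-sided permutation test over 3 against 3 libraries gave p = 0.1 for Muc96D and for Muc26B, the smallest p it allows, so this measure alone cannot pass a threshold of 0.05. The other 4 members gave p = 0.2 to 0.9 in the same exact permutation test.

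By HTSeq in the poly(A)-primed libraries, the spike-in scaled share left was 12.8% for Muc96D, 27.7% for Muc26B and 49.6% for Muc18B. It was 58.6% for Muc68Ca, 60.0% for Muc55B and 87.4% for Muc11A, where the protein-coding median was 96.4%. Kallisto, used for the random-primed shares, gave 12.6%, 27.7%, 48.4%, 60.1%, 63.2% and 84.9% for these members in the same order. Muc96D had the lowest estimate of the members in both library types. Its 0.826% (random-primed) and 12.8% (poly(A)-primed) came from the same depleted RNA, so neither settles the amount of Muc96D RNA left. What made them differ was not tested. By group means, the longest member, Muc68Ca, kept more than Muc18B, the shortest, in both library types. Muc96D, of 2796 bases, kept less than either. A relation to transcript length was not tested.

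**Figure D4:**
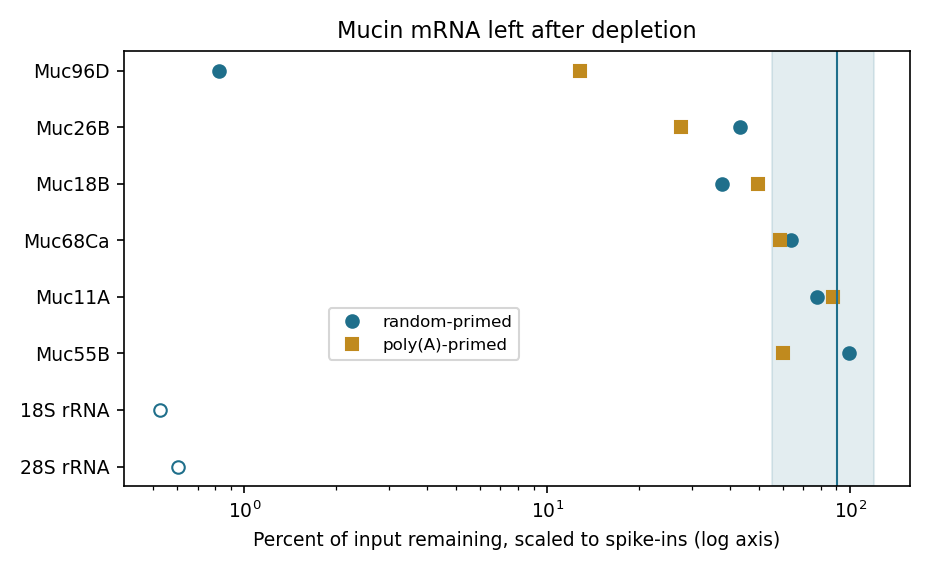
Estimated percent of input RNA remaining after depletion, from counts scaled to the spike-ins, on a log axis. Filled circles are members in random-primed libraries (Kallisto estimated counts) and squares are poly(A)-primed libraries (HTSeq reads). Open circles are the targeted rRNAs in random-primed libraries. The shaded band and line give the 5th to 95th percentile and the median of protein-coding genes in random-primed libraries. Muc96D at 0.826% lies beside 18S (0.527%) and 28S (0.602%).

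Muc96D counts depended on the counting. Over the poly(A)-primed libraries its Kallisto count was 76.3% of its HTSeq count, where the median of 3280 genes with at least 100 reads was 95.1% and the 5th percentile 86.1%. The share was 76.5% in input and 75.4% after depletion, so the change by depletion was alike by both. Kallisto gave 257, 367 and 182 counts to introns of the surrounding gene Fur1 in the 3 poly(A)-primed input libraries. Whether reads of Muc96D were among them was not tested. By Kallisto, introns included, Fur1 had 315 ± 28.6 CPM in random-primed input and 292 ± 18.5 CPM after depletion (SD, n = 3). In the poly(A)-primed libraries Kallisto gave Fur1 71.1 ± 3.98 CPM in input and 72.2 ± 8.69 CPM after depletion. HTSeq gave it 27.2 ± 2.91 and 46.8 ± 5.03 CPM. Introns held most of the Kallisto counts of Fur1 there. They were 257.1 of 318.1, 366.7 of 418.5 and 182.2 of 220.4 in input. After depletion they were 168.6 of 263.3, 228.6 of 306.9 and 144 of 184.8. The Kallisto and HTSeq values of Fur1 are therefore not like measures, and only the HTSeq value rose.

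The members differed in how they varied between replicates. Muc55B, Muc11A, Muc68Ca and Muc18B were lowest in replicate 3 in all 4 groups. The level in replicate 3 was 0.416 to 0.473 of the mean of the others for Muc55B and 0.416 to 0.502 for Muc11A. For Muc68Ca it was 0.687 to 0.856 and for Muc18B 0.300 to 0.795. The median of 5315 genes was 0.909 to 0.992 and their 5th percentile 0.489 to 0.642, depending on the group. Muc55B and Muc11A lay below the 5th percentile of each group. Muc68Ca lay above it in each group and so within the ordinary range of genes. So did Muc18B, except in random-primed input, where replicate 3 rested on 9 counts. Muc26B, at 0.933 to 1.08, and Muc96D, at 0.826 to 1.36, were not lowest in replicate 3 throughout. In whole larvae, fewer cells of a type and less RNA per cell cannot be told apart in such differences between replicates.

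**Figure D5:**
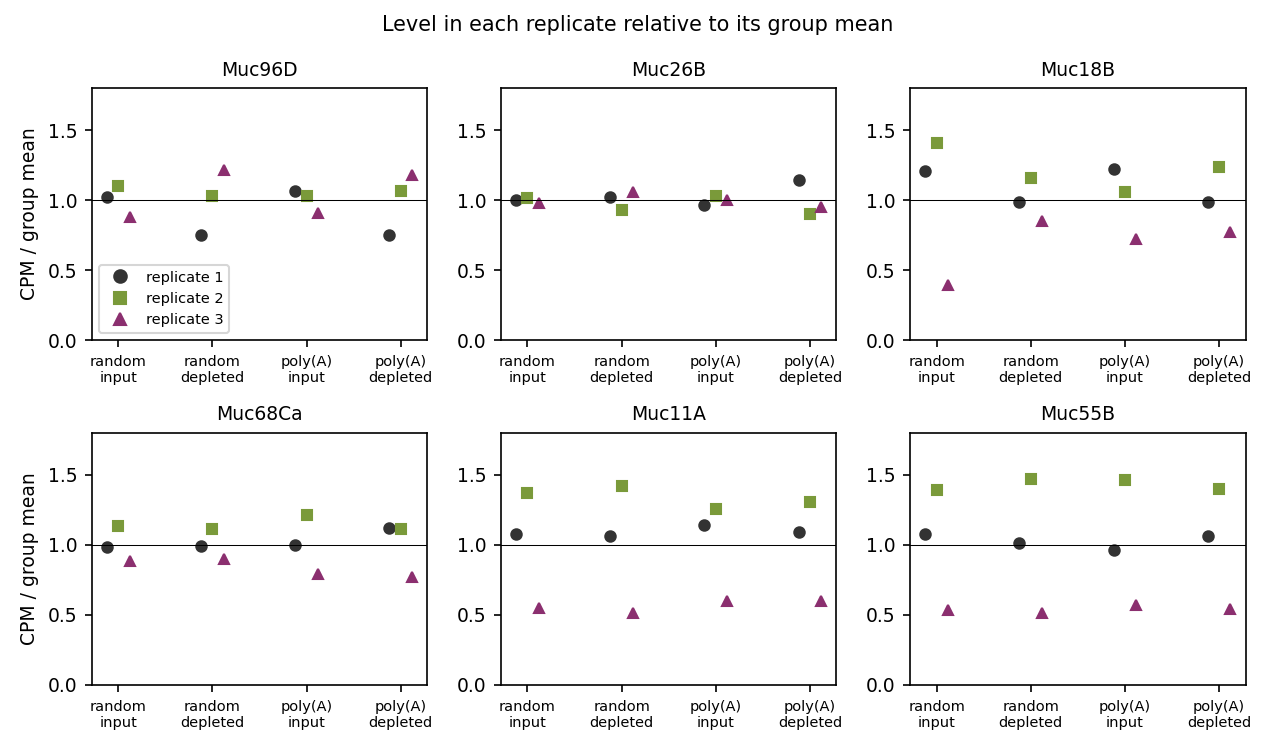
CPM in each library divided by its group mean, for 6 members in the 4 groups, with the replicate number as shape and colour. Replicate 3 lies lowest in all 4 groups for Muc55B, Muc11A, Muc68Ca and Muc18B, and Muc26B stays near 1 throughout.

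Over the 12 libraries, centred within each library type, Muc55B and Muc11A varied together (Pearson r = 0.93 across libraries of shared RNA), as a description. Of 5314 other genes, those most like Muc96D were Sgs1 (r = 0.999), cpb (0.987) and Taf12 (0.984). Sgs1 encodes a salivary glue protein with threonine-rich repeats, and cpb a subunit of the actin capping protein. Muc11A was most like IMPPP (0.989), Jon65Aiv (0.986), a serine protease gene, and CG44245 (0.986), and Muc55B like RpL17 (0.984), Fdh (0.983) and yellow-d2 (0.983). The genes most like Muc26B were Prosbeta2, CG13704 and CAH2 (0.975 to 0.978), those most like Muc68Ca were inaE, CG9682 and Rpt2 (0.966 to 0.972), and those most like Muc18B were Pex5, CG5011 and Rat1 (0.961 to 0.983). These correlations hold the depletion change itself and the shared depth of the libraries.

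Among 11 other genes with a Muc or Mur symbol, 6 were tested in the random-primed libraries, of which 2 were lower and 0 higher (0 higher also by DESeq2 and at an unadjusted p under 0.05). Mur2B went from 54.5 ± 39.8 to 17.2 ± 2.09 CPM (log2 fold change −1.74 ± 0.37, edgeR adjusted p = 0.0343), and Mur89F from 87.4 ± 8.96 to 53.6 ± 3.03 CPM (−0.74 ± 0.17, edgeR adjusted p = 0.0356). In the poly(A)-primed libraries Mur2B did not pass the low-count filter by HTSeq. By Kallisto it hardly changed there, with 31.6 ± 3.60 CPM in input and 29.1 ± 3.91 CPM after depletion. Mur29B, the most abundant of them at the 3′ end, had a log2 fold change of −0.97 ± 0.30 (edgeR adjusted p = 0.187). The median over the 6 was −0.57. Of the 3 peritrophin genes, 0 passed in the random-primed edgeR test, 2 had an unadjusted p under 0.05, both higher, and DESeq2 called 0. In the poly(A)-primed libraries 1 of the 3 was called lower by edgeR: Peritrophin-A, named after its values were seen, had a log2 fold change of −1.80 ± 0.22 there and −0.23 ± 0.23 in the random-primed libraries. Peritrophin-15a, a peritrophic matrix protein, had a log2 fold change of 0.39 ± 0.14 (edgeR adjusted p = 0.283). Of 11 genes for mucin-type O-glycosylation, 0 passed by edgeR or by DESeq2 in either library type, and in the random-primed libraries 1 had an unadjusted p under 0.05, with a median log2 fold change of 0.01. Pgant1, a GalNAc transferase and the most abundant of them by poly(A)-primed input CPM, was at −0.03 ± 0.21 in the random-primed libraries (edgeR adjusted p = 0.981).

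Markers of tissues in the larvae moved beside the mucins in part. Of 6 salivary gland genes, all glue protein genes, 3 were lower in the random-primed libraries. They were Sgs1 (log2 fold change −5.32 ± 0.21, edgeR adjusted p = 1.10e-07), Sgs3 (−2.93 ± 0.19, adjusted p = 7.34e-06) and Sgs4 (−2.21 ± 0.16, adjusted p = 1.47e-05). The others did not pass, with Sgs7, the most abundant by poly(A)-primed input CPM, at 0.49 ± 0.23. The summed level of the list was 15896 to 17230 CPM in input and 10654 to 15414 CPM after depletion. Of 4 epidermal genes, 1 was lower (Lcp2, −1.03 ± 0.16, edgeR adjusted p = 0.00325). Lcp3, the most abundant by poly(A)-primed input CPM, was at 0.14 ± 0.17. In the lists for fat body, midgut and muscle, 0 of 5, 0 of 5 and 0 of 4 passed in the random-primed libraries. This held by edgeR, by DESeq2 and at an unadjusted p under 0.05. Their most abundant genes by poly(A)-primed input CPM were Lsp1beta, alphaTry and Mlc2. The random-primed log2 fold changes of these were −0.22 ± 0.21, 0.17 ± 0.17 and 0.23 ± 0.31. In the poly(A)-primed libraries edgeR called 3 of 6 salivary gland, 2 of 4 epidermal, 1 of 5 fat body and 1 of 5 midgut genes lower and 0 of 4 muscle genes, where 1 was higher by DESeq2 and at an unadjusted p under 0.05. Those of fat body and midgut were Lsp1beta, with a log2 fold change of −1.16 ± 0.20, and alphaTry, with −0.65 ± 0.16. No marker was at 0 in all libraries, and the part of these tissues in the mucin results was not tested.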

How the data were processed

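The authors trimmed reads with Cutadapt (2.5) or BBDuk (BBMap 38.73). They estimated transcript counts with Kallisto (0.46.2) on Ensembl release 99 transcripts, introns and spike-ins, in all 12 libraries, and deposited these expected counts. Spliced and intronic parts were summed here per gene and rounded. A second deposited table holds raw counts of uniquely mapped reads (STAR 2.5.3a, HTSeq 0.12.4) for the 6 poly(A)-primed libraries. A table of the authors' own fold changes and p-values was not used.

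Genes were tested here in edgeR (4.0.16; R 4.3.3) by the quasi-likelihood test with TMM, filterByExpr, Benjamini-Hochberg adjustment over all genes and a threshold of 0.05. The 7 spike-in genes were left out of each fit. The 138 rRNA genes were left out of the random-primed fit and the fit of all 12 libraries. The poly(A)-primed fit on HTSeq counts kept rRNA genes that passed the filter (9535 genes), and these were taken out afterwards (9530 reported). The random-primed libraries were tested and the poly(A)-primed ones described. Both contrasts used only their own 6 libraries. The difference between library types came from a fit of all 12. HTSeq summary lines (7.81% to 9.88% of counts) stayed out. CPM used non-rRNA totals. Correlations used a prior count of 2. Recovery was the ratio of group means per spike-in count for genes with at least 10 counts on average in input, with an exact permutation test in scipy (1.17.1).

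The members and gene lists were chosen with earlier results of these data known. Named genes were all members, list genes that passed the random-primed test (at most 5 by adjusted p), the most abundant gene of each list, and the 3 most correlated with each member. The scale for "most abundant" (mean poly(A)-primed input CPM) was set after values were seen. Each contrast was fitted 12 times, once as described and under 11 alternatives: DESeq2 (1.42.0), spike-in library sizes, no low-count filter, the replicate number as a block, each library left out in turn, and spliced counts only or Kallisto counts. Positions come from Ensembl release 115 (BDGP6.54), later than the files' release. The scripts were tested on simulated data. The 3 libraries of a group come from separate RNA samples.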

Additional observations from a re-analysis of the deposited data

Results flagged for a closer look

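The change by depletion differed between library types for Muc96D, by −3.67 on the log2 scale (random-primed minus poly(A)-primed), in the 12-library edgeR fit at an adjusted p under 0.05. The poly(A)-primed change was known when the gene was chosen, so this is no independent test. In that fit 51 of 11175 genes (0.456%) differed, and 15 protein-coding genes had a more negative difference than Muc96D. Muc26B, with 0.88 ± 0.20, did not pass.

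The same test picked out the glue protein gene Sgs1, with a difference of −2.74. Its mean level went from 1120 to 29.0 CPM in random-primed libraries and from 171 to 36.2 CPM in poly(A)-primed libraries.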

How the results depend on the processing

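Muc96D and Muc26B stayed lower and past the threshold in all 11 alternatives of the random-primed test. With each library left out, Muc96D was at −6.92 to −6.53 and Muc26B at −1.13 to −0.97 (adjusted p 0.00047 to 0.0146). Muc18B also passed with DESeq2 (adjusted p = 0.0102), with no low-count filter (0.0402) and with spliced counts only (0.0477), and its adjusted p was 0.00211 to 0.456 with each library left out. Muc68Ca passed with DESeq2 (0.00275). Muc55B turned to −0.016 with spike-in library sizes, which moved the median of all genes by −0.16, and leaving out each library gave −0.261 to 0.420 for Muc55B and −0.555 to 0.066 for Muc11A. In the poly(A)-primed libraries Muc11A ranged from −0.42 to 0.10. The filter moved the random-primed median by 0.12.

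Counts of called genes moved more. In the random-primed libraries, 248 lower and 7 higher became 401 and 12 with DESeq2 and 159 and 3 with spike-in sizes. No filter gave 19 higher. In the poly(A)-primed libraries, 367 lower and 95 higher became 119 and 4 with spike-in sizes, which took the higher share of calls from 20.6% to 3.25%, and 174 higher with no filter. Leaving out a library gave 142 to 293 lower and 1 to 7 higher in random-primed libraries, with 152 and 142 lower without replicate 1 of input and of depleted RNA, and 136 to 421 lower and 9 to 140 higher in poly(A)-primed ones, with 136, 198, 173 and 149 lower without input replicates 1 and 2 and depleted replicates 1 and 2. With the median over spike-ins, Muc68Ca kept 62.0% (random-primed) and Muc55B 63.5% (poly(A)-primed, HTSeq).

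The input and depleted libraries share RNA samples, but the labels do not say that equal replicate numbers mark the same sample. Deviations of same-numbered input and depleted libraries correlated at 0.051, 0.221 and 0.296 (random-primed) and 0.041, 0.295 and 0.534 (poly(A)-primed), and replicate 1 of the input did not correlate best with its own number. The replicate block gave 591 lower and 266 higher calls in random-primed and 1105 and 789 in poly(A)-primed libraries, with higher shares of 31.0% and 41.7%. Under the block Muc18B (0.00171), Muc68Ca (2.26e-06) and Muc11A (0.0394) passed.

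The random-primed input libraries limit the precision for Muc18B, and Muc68D and Muc4B were not measurable at this depth.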
